A study of Mus musculus with 4 samples.

Results

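The 10 genes described here carry the signal of interleukin-6 (IL6) and its relatives into the cell, together with the entry points for interleukin-1 and tumour necrosis factor (TNF). They were chosen by name: Il6ra, Il6st, Lifr, Osmr, Jak1, Tyk2, Stat3, Socs3, Il1r1 and Tnfrsf1a, 10 of 55413 genes in the GENCODE vM21 annotation of the mouse genome build mm10. For each, counts were taken from peaks of open chromatin over the gene body and the 2 kb upstream of it (the gene window). All 10 passed a minimum mean of 5 CPM (counts scaled to a total of 1000000 in the nuclei of a library), as did 22524 genes in all.

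The data were 4 single-cell ATAC-Seq (scATAC-Seq) libraries, in which Tn5 transposase cuts accessible DNA and a droplet barcode marks the nucleus. They came from hepatocytes of mouse liver, freed by two-step collagenase perfusion, with 1 library from undamaged liver, without surgery (0 h). The others were taken 48, 72 and 96 h after PHx, that is partial hepatectomy, an operation in which much of the liver is cut away. All mice were 10 to 12 weeks old per the labels and on a normal diet, and the study's methods give male C57BL/6J animals; no genetic modification or drug is named for any group. A single hepatocyte preparation gave the 0 h library, and another, from 1 mouse, the 48 h library. The sources used here do not say whether animals were pooled at 72 and 96 h. With 1 library per time point, a difference between them has no replicate check, and no p-value is given. The error shown is a 95% counting interval, which does not cover variation between animals.

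IL6 binds its own receptor (Il6ra), and the pair then recruits gp130, the product of Il6st. Leukaemia inhibitory factor and oncostatin M use the same gp130 together with Lifr or Osmr. The kinases Jak1 and Tyk2, bound to these receptors, activate Stat3, which enters the nucleus and turns on acute-phase and growth genes, among them its own inhibitor Socs3. In the liver, TNF and IL6 released by Kupffer cells soon after PHx are known to prime hepatocytes for division.

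The libraries held 136949314, 62553202, 25540258 and 15809769 counts at 0, 48, 72 and 96 h, with medians per nucleus (a barcode with at least 1000 counts) of 26005, 11629, 4841 and 3681.5. Peaks were called in each library on its own, so the called length also differed: 153.58, 179.04, 141.2 and 60.9 Mb at 0, 48, 72 and 96 h. Over the 10 gene windows together it was 265114, 336238, 201192 and 106110 bp. Between 681 and 882 barcodes were shared by each pair of libraries, of which 27 to 60 had at least 1000 counts in both. Barcodes also found in another library held 49.3% of the counts at 0 h, and values without them are given where they change a call. Nuclei in clusters with high hepatocyte marker levels (hepatocyte-like) made up 92.5% to 97.5% of each library. The hepatocyte markers Alb, Apob, Cps1 and Hnf4a were at 410.2 CPM or more in every library, although 4 of the 10 hepatocyte markers were past 2-fold lower at 72 h and 2 at 96 h, beside 7.62% and 12.0% of all genes.

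Osmr, which encodes a receptor chain that pairs with gp130 to bind oncostatin M and is also part of the interleukin-31 receptor, was the only gene of the 10 past 2-fold higher at all 3 times after PHx. It held 10.1 CPM at 0 h, 21.8 at 48 h, 30.7 at 72 h and 28.9 at 96 h. The 95% counting intervals were 9.36 to 10.9, 20.2 to 23.5, 27.7 to 34.0 and 25.2 to 33.1 CPM. All 3 later libraries lay above undamaged liver without overlap, and the intervals at 72 and 96 h overlapped each other. On the log2(CPM + 1) scale the differences from 0 h were 1.04 at 48 h, 1.51 at 72 h and 1.43 at 96 h. These rested on 1381, 1350, 760 and 431 counts.

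**Figure D1:**
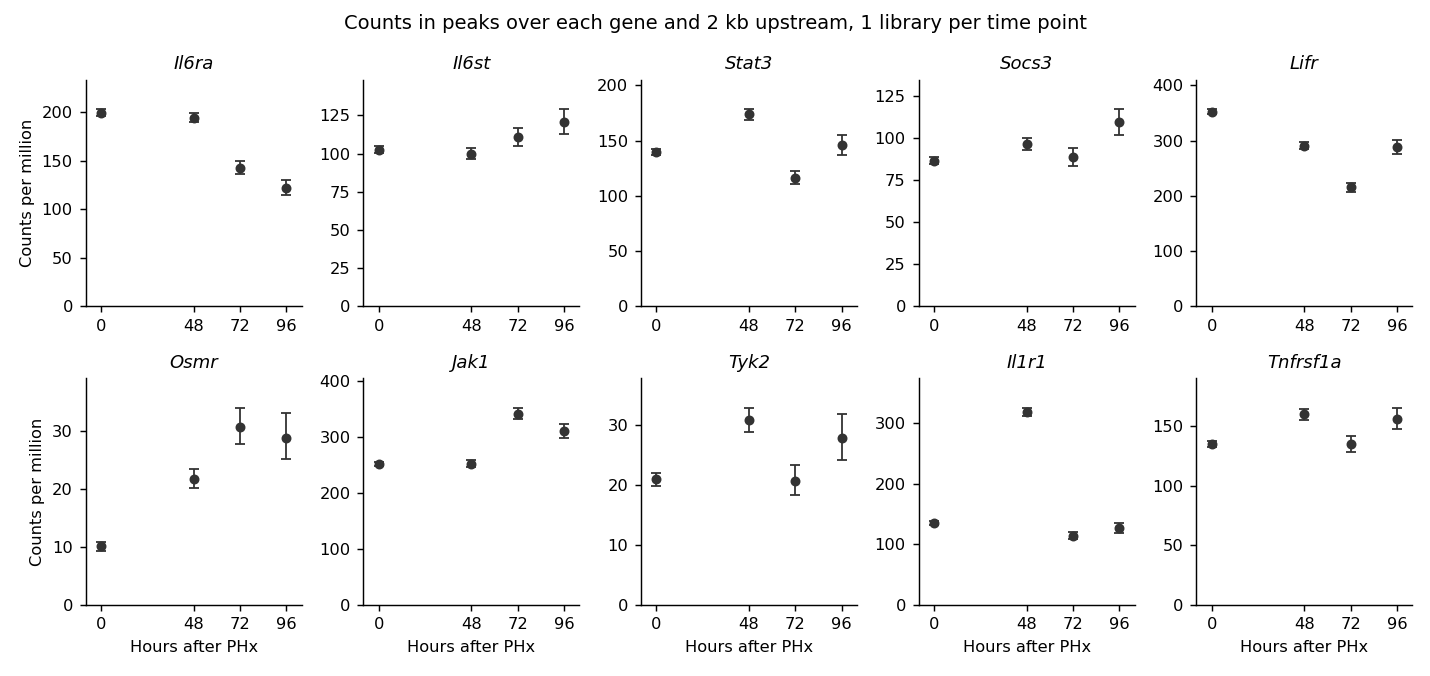
CPM in peaks over each gene and the 2 kb upstream (vertical axes, each from 0) against hours after PHx (horizontal axes), 1 point per library with its 95% counting interval. Osmr stood at 10.1 CPM at 0 h and at 21.8 to 30.7 CPM afterwards, whereas Il1r1 was high only at 48 h, at 319 CPM.

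Most of the Osmr signal lay in 1 compact region over the gene start (chr15:6873116-6875044, mm10, minus strand), which held 72.9% of the counts of the window at 0 h and 79.1% at 96 h. This promoter region was at 7.37, 16.4, 23.5 and 22.8 CPM at 0, 48, 72 and 96 h. Its called length was 1600, 1905, 1929 and 1642 bp. The log2 differences of the promoter were 1.05, 1.55 and 1.51 in CPM and 0.90, 1.40 and 1.59 per kb of covered peak, so that per kb the 48 h value was short of 2-fold. An intronic region centred 34590 bp into the gene (chr15:6840082-6840675) was at 2.74, 3.23, 4.33 and 6.03 CPM. Another intronic region, centred 2856 bp into the gene, held a peak only at 48 h (2.19 CPM) and 72 h (2.91 CPM).

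To show what the Osmr promoter holds, the 250 bases just before the first annotated start (chr15:6874970-6875219, read 5′ to 3′ on the minus strand from the GRCm38.p6 reference) are given first. The first annotated start lies upstream of the RefSeq start, and 75 of these 250 bases fall inside the open region. The stretch held 0 matches to any of 4 searched motifs. The RefSeq promoter window runs from 250 bases before to 50 after the RefSeq start (chr15:6874264-6874563). Its only match was to TGANTCA, a loose form of the AP-1 motif in which any base may stand at N. The match has T at that place and so rests on the loose form. It lies 3 bases past the start and well inside the open region. It is shown second, in capitals, with 10 bases on each side (chr15:6874294-6874320).
Osmr upstream: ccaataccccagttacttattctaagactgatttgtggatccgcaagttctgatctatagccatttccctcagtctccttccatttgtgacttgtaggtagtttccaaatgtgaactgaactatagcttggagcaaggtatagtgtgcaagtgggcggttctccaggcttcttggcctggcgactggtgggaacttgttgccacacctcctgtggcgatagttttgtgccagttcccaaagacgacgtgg
Osmr AP-1 match: gccccgtagtTGATTCAtagctggggc

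Compared with all genes, the Osmr gene window stood at the 94.4th, 95.8th and 98.5th percentile of the log2 differences at 48, 72 and 96 h. Its promoter stood at the 94.7th, 96.5th and 98.4th percentile. At 96 h, when most peaks were short and that of Osmr was not, genes with peaks of nearly the same length as at 0 h (each at least 0.8 of the other and overlapping by at least 0.8) had a median log2 difference of 0.81, and 34.9% of these 3261 genes were past 2-fold higher. Among them Osmr was at the 89.0th percentile, 0.62 above the median. Over peaks matched in the same way, the log2 difference of Osmr was 0.89 at 48 h, short of 2-fold, and 1.375 at 72 h. These stood at the 99.8th percentile of 17076 genes and the 99.75th of 14560. In hepatocyte-like nuclei, which make up most of every library, Osmr was at 10.1, 21.6, 30.4 and 28.8 CPM. In hepatocyte-low nuclei it was at 9.51, 37.2, 43.7 and 35.2 CPM, on 16, 28, 24 and 4 counts, with intervals that overlapped those of hepatocyte-like nuclei at every time. Per kb of covered peak, the gene window differed from 0 h by 0.49, 0.95 and 1.54, so at 48 and 72 h part of the gain in CPM went with a longer called length (3274 and 3361 bp against 2129 bp). Without the barcodes found in more than 1 library the log2 differences were 0.94, 1.41 and 1.34, the first of them short of 2-fold.

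Sums over some marker lists of other cell types were also higher after PHx, and their part in the Osmr values was not tested. The 8 markers of stellate and mesenchymal cells summed to 110 CPM at 0 h, 155 at 48 h, 207 at 72 h and 181 at 96 h. In hepatocyte-like nuclei alone that sum was 109, 155, 206 and 181 CPM. Of the 5 that passed the 5 CPM minimum, 1 was past 2-fold higher at 48 h, 2 at 72 h and 1 at 96 h, where 5.98%, 9.95% and 5.36% of all genes were. Lrat was at 4.80, 10.5, 14.96 and 12.4 CPM and Pdgfrb at 10.4, 29.0, 45.7 and 16.7 CPM, while Des and Dcn were at 0 in 3 of the 4 libraries. Hand2 was at 0 at 0 and 96 h. The 10 endothelial markers summed to 364, 376, 452 and 216 CPM and the 8 Kupffer and myeloid markers to 171, 240, 212 and 110 CPM, with Vsig4 at 0 in every library. The lower sums at 96 h went with Egfl7 (162 and 46.1 CPM at 0 and 96 h) and Cd68 (100.5 and 8.91 CPM). Without Egfl7 the endothelial sum was 202, 218, 265 and 170.1 CPM, and without Cd68 the Kupffer and myeloid sum was 70.7, 137, 144 and 101 CPM. The 5 cholangiocyte markers summed to 46.6, 46.6, 69.4 and 68.3 CPM, with Epcam at 5.80, 11.1, 16.2 and 17.5 CPM and Krt19 at 0 in 3 of the 4 libraries. In sums over a library such as these, fewer cells of a type and less signal per cell cannot be told apart.

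Il1r1, the signalling receptor for interleukin-1, showed the other large difference, and of a different kind. It was at 135 CPM at 0 h, 319 at 48 h, 114 at 72 h and 126 at 96 h. The 48 h library stood alone, and the other 3 lay close together. The log2 difference at 48 h was 1.24 (95% counting interval 1.20 to 1.28), and that at 72 and 96 h was -0.24 and -0.09. The covered length was also greatest at 48 h: 30118, 78383, 22532 and 11744 bp. At 96 h the 2 parted, with log2 differences from 0 h of -1.36 in length and -0.09 in counts. Per kb of covered peak the 48 h library was slightly lower, by 0.14 on the log2 scale.

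The gain at Il1r1 was spread over the locus. Of its 23 regions, 22 held a peak at 48 h, against 16 at 0 h, 14 at 72 h and 9 at 96 h. The region over the gene start (chr1:40224323-40238150, plus strand) was at 67.7, 95.7, 49.4 and 65.1 CPM, and the strongest one elsewhere, centred 41263 bp into the gene (chr1:40259861-40272824), was at 19.2, 45.1, 22.2 and 22.8 CPM. The second of these holds another RefSeq start of the gene. In the plot of regions, the Il1r1 bars at 48 h are higher and fill gaps that are empty in other libraries, whereas at Osmr the same region grows in height. The 1 Il1r1 peak that had a counterpart of nearly the same length at 48 h was at 1.85 CPM at 0 h and 2.37 CPM at 48 h.

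**Figure D2:**
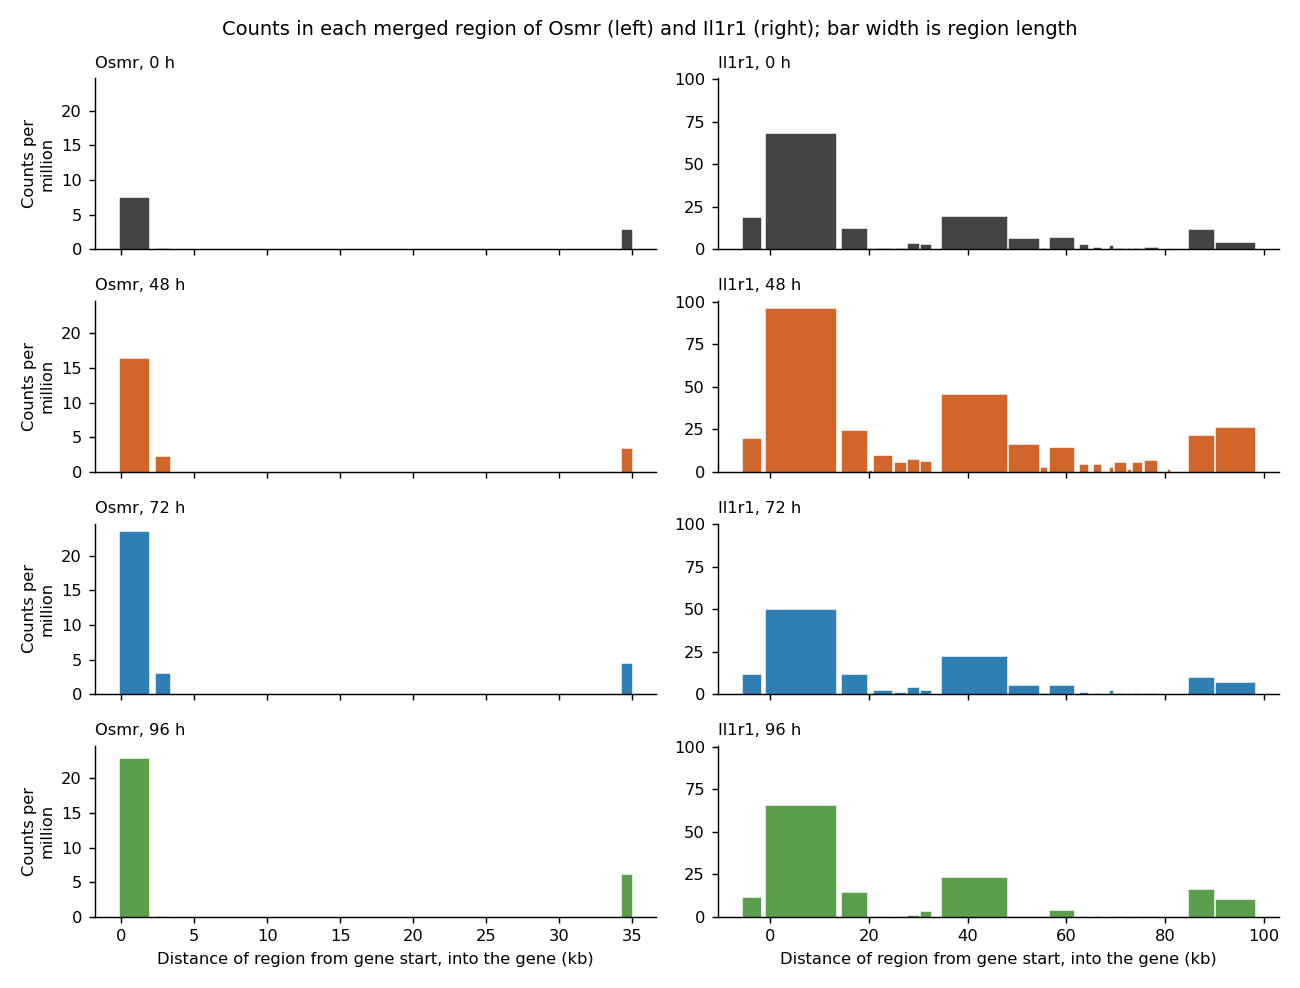
CPM (vertical axes) in each merged region of Osmr and of Il1r1, placed by distance from the gene start in kb (horizontal axes), with 1 row per library; bar width is the length of the region over all libraries, not the called length. The start region of Osmr went from 7.37 CPM at 0 h to 23.5 CPM at 72 h, and 22 of the 23 regions of Il1r1 held a peak at 48 h.

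Il1r1 has 2 RefSeq starts, and the upstream one is shown here. The 250 bases before it (chr1:40224830-40225079, plus strand, GRCm38.p6) hold 1 match to the C/EBP motif TTGCNNAA, in capitals.
Il1r1 upstream: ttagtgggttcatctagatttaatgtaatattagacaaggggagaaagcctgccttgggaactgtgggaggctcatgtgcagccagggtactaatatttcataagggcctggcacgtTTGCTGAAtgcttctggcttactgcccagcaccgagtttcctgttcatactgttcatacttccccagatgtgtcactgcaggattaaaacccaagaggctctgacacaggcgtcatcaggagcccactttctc
Its whole 300-base window was 49.3% G and C, with 5 CpG, against 63.3% and 14 CpG around its other start (chr1:40266336-40266635). The RefSeq window of Osmr had 66.0% and 22 CpG, and the median over 32851 promoter windows was 52.7% and 7 CpG. The Osmr upstream stretch printed above is a different one, with 48.4% G and C and 6 CpG in 250 bases, close to that of Il1r1.

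Counted over the 10 genes, 2 (Osmr and Il1r1) rose past 2-fold at 48 h, 1 (Osmr) at 72 h and 1 (Osmr) at 96 h. Over all genes tested, 5.98% rose past 2-fold at 48 h, 9.95% at 72 h and 5.36% at 96 h. None of the 10 fell past 2-fold, against 2.52%, 7.62% and 12.0% of all genes. The median log2 difference of the 10 was 0.20, -0.01 and 0.22, beside -0.04, -0.03 and 0.06 over all genes. Called in the promoter alone (peaks within 1 kb of the gene start, for which 9 of the 10 passed the filter and Lifr did not), 1, 2 and 3 genes were past 2-fold in either direction, beside 9.11%, 17.5% and 20.1% of all genes. They were Osmr, higher at each time, with Il1r1 lower at 72 h and both Il1r1 and Jak1 lower at 96 h.

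The lower promoter values of Jak1 and Il1r1, and that of Socs3 at 96 h, went with peaks that were cut into shorter pieces. At Jak1 the peak over the gene start measured 22476 bp in undamaged liver and 1654 bp at 96 h, and its level went from 122 to 40.8 CPM. When all peaks of the same merged region were counted, Jak1 was at 203 CPM at 96 h, which is higher by 0.73 on the log2 scale. At Il1r1 the start region as a whole was lower by 0.45 at 72 h and by 0.06 at 96 h.

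**Figure D3:**
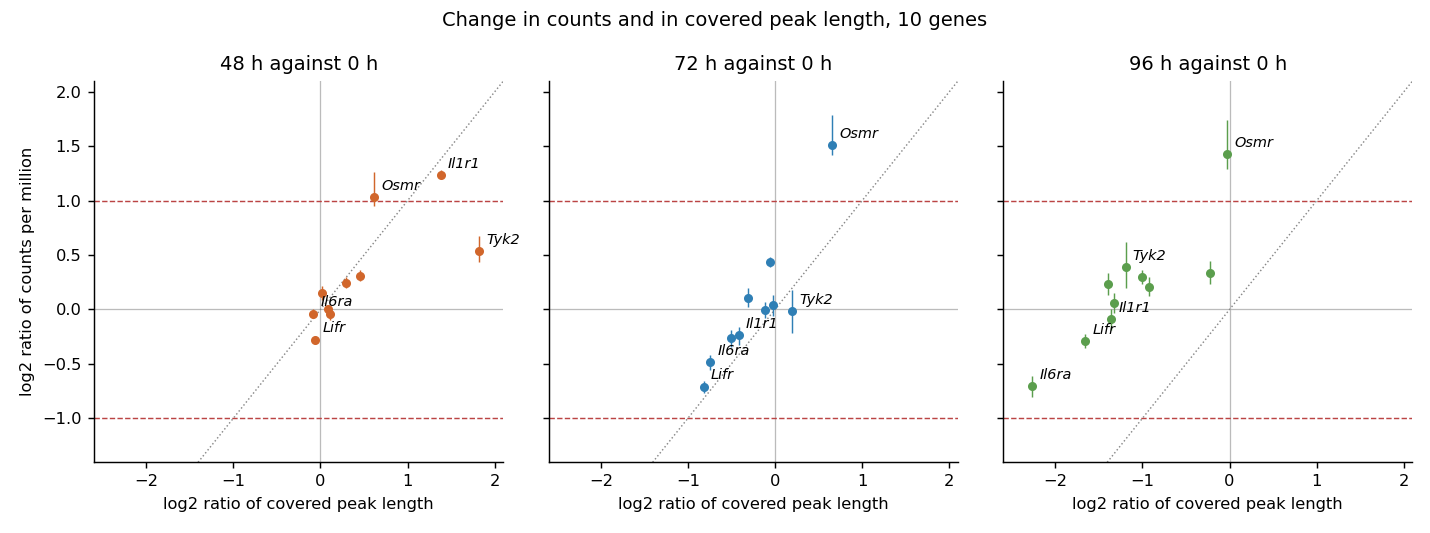
The log2 difference from 0 h in CPM (vertical axis, with 95% counting intervals) against that in covered peak length (horizontal axis) for the 10 genes at 48, 72 and 96 h; the dotted line marks equal change in both and the dashed lines 2-fold. Il1r1 at 48 h lies near the dotted line, at 1.24 in counts and 1.38 in length. At 96 h all 10 genes lie above that line, Osmr at 1.43 and -0.03.

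Among the other receptors, Il6ra was at 199, 194, 142 and 122 CPM at 0, 48, 72 and 96 h. The first 2 libraries had overlapping intervals, and the later 2 were lower, by 0.48 and 0.70 on the log2 scale. The covered length of Il6ra fell by more, from 38166 to 7925 bp, so that per kb it was higher at 72 h by 0.26 and at 96 h by 1.56. The median of all genes per kb was higher too, at 7.05, 7.7 and 15.9 CPM at 0, 72 and 96 h. Among all genes, Il6ra per kb stood at the 24.4th, 27.4th and 46.6th percentile at these times. Its start region (chr3:89904981-89914136, minus strand) was at 73.3, 70.4, 61.8 and 60.3 CPM, and an intronic region centred 15723 bp into the gene (chr3:89894910-89900036) at 34.5, 31.5, 17.1 and 20.7 CPM.

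Il6st, which encodes the shared signal transducer gp130, was close to level. It was at 103, 100.03, 111 and 121 CPM, with log2 differences of -0.04, 0.11 and 0.23. Its start region (chr13:112462942-112473295, plus strand) was at 68.2, 60.8, 70.1 and 90.3 CPM.

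Lifr, which pairs with gp130 for leukaemia inhibitory factor, had the highest count of the 10 at 0 h, though not per length. It was at 352, 290.4, 215 and 288 CPM, lowest at 72 h, with log2 differences of -0.28, -0.71 and -0.29. Per kb it was within 0.22 of undamaged liver at 48 and 72 h. Its covered length was 60168, 57744, 34161 and 19120 bp. No peak lay within 1 kb of the first annotated start of Lifr in any library, and 0 counts were listed there. Over peaks at any annotated transcript start, Lifr was at 293, 108, 86.0 and 96.4 CPM, past 2-fold lower at all 3 later times with log2 differences of -1.43, -1.76 and -1.59, as the length of those peaks went down from 39143 to 17795, 10669 and 4594 bp. A RefSeq start further in lies in an open region (chr15:7128214-7131914, plus strand) at 48.0, 38.6, 42.8 and 72.5 CPM. Most of the counts lay in a broad region of 36942 bp downstream of it (chr15:7134156-7171097), at 253, 182, 143 and 202 CPM. This broad region holds another RefSeq start of the gene, which lay in a peak in every library.

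Tnfrsf1a, the main signalling receptor for TNF, was at 135, 160, 135 and 156 CPM, split between its start region (chr6:125348252-125356839, plus strand) and a second one that begins inside the gene and runs past its end (chr6:125357873-125371663). The start region was at 69.2, 73.7, 62.8 and 79.7 CPM and the second at 69.1, 86.0, 71.8 and 82.5 CPM. All log2 differences of the Tnfrsf1a window were 0.24 or less.

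The kinases differed from each other. Jak1 was at 252 CPM at both 0 and 48 h, 341 at 72 h and 309 at 96 h. The log2 difference of 0.44 at 72 h (95% counting interval 0.39 to 0.49) came with almost no difference in covered length (54746 and 52725 bp) and kept its sign in 16 of 16 alternative settings. It was most visible in the broad start region (chr4:101243498-101266163, minus strand), where peaks of 22476 and 22446 bp held 122 and 179 CPM at 0 and 72 h. Some 75.3% of all genes had a lower log2 difference than Jak1 at 72 h, and it did not reach 2-fold. The Jak1 window also covers Raver2, whose counts cannot be separated from it. Tyk2 was at 20.9, 30.8, 20.7 and 27.8 CPM. Its start region (chr9:21130466-21132581, minus strand), which held 98.2% of the counts at 0 h, was at 20.6, 18.1, 18.6 and 27.8 CPM. The excess of the Tyk2 window at 48 h came from 9 further regions, the strongest (chr9:21104399-21105888) at 3.15 CPM at 48 h and 0 in the other libraries. Per kb of covered peak the window turned to a log2 difference of -1.26 at 48 h, as its covered length went from 2218 to 7823 bp. The window of Tyk2 overlaps Cdc37.

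Stat3, the transcription factor of the pathway, was at 140 CPM at 0 h, 174 at 48 h, 116 at 72 h and 146 at 96 h. The 48 h library was highest, by 0.31 on the log2 scale (95% counting interval 0.26 to 0.36), with 42511 bp covered against 31116 bp at 0 h. Over the 3 Stat3 peaks with a counterpart of nearly equal length the sign turned, to -0.20, beside a median of -0.14 over all genes measured that way. The start region (chr11:100924349-100940402, minus strand) was at 66.5, 75.4, 63.7 and 82.6 CPM. The Stat3 window also takes in part of Stat5a, whose counts cannot be separated from it.

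Socs3, the feedback inhibitor that Stat3 induces, was open in undamaged liver already. The whole of the gene lay in 1 region (chr11:117961788-117970903, minus strand) of 8967, 9112, 8854 and 7695 bp covered. It was at 86.6, 96.4, 88.9 and 109 CPM, with log2 differences of 0.15, 0.04 and 0.33. At 96 h the region held 2 peaks, and the one at the gene start alone (2508 bp) was at 45.2 CPM, a log2 difference of -0.92. Per kb, Socs3 had the highest level of the 10 in each of the first 3 libraries, at 9.66, 10.6 and 10.0 CPM per kb, and the sixth highest at 96 h. At 0 h its interval overlapped that of Tyk2 (9.44 CPM per kb) and at 72 h that of Osmr (9.15). Il1r1 had the lowest value at 0, 72 and 96 h, but its interval overlapped those of Stat3, Jak1 and Osmr at 0 h, of Stat3 at 72 h, and of Jak1 and Stat3 at 96 h.

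STAT proteins bind TTCNNNGAA, so the matches to it in the promoter windows are shown, with the motif in capitals. Of the 10 genes, 2 had a match in a RefSeq window, Socs3 (chr11:117969502-117969530, minus strand) and Tnfrsf1a (chr6:125349473-125349497, plus strand).
Socs3: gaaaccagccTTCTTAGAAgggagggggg
Tnfrsf1a: gcttccTTCCGTGAAattgacaaca
Over all 32851 windows, 8.30% hold TTCNNNGAA on either strand, 1.148% the stricter TTCCNGGAA (0 of the 10 genes), 7.81% TGANTCA (only Osmr of the 10) and 10.8% TTGCNNAA (only Il1r1). TTCCNGGAA is a subset of TTCNNNGAA. A match shows the letters only, not that a factor was bound.

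Set against the hepatocyte-low nuclei, which made up 2.51% to 7.49% of each library and fell in 2 clusters (in 1 of them 6 of 9 endothelial markers were past 2-fold higher than in the other clusters, in the other 2 of 4 Kupffer markers), the 10 genes were not alike. Jak1 was at 249.2 CPM in hepatocyte-like and 444 CPM in hepatocyte-low nuclei at 0 h, and Tnfrsf1a at 134 and 226 CPM. Il6st, at 102 and 150 CPM, and Socs3, at 85.8 and 147 CPM, were also higher in hepatocyte-low nuclei at 0 h, as were Stat3, at 139 and 188 CPM, and Tyk2, at 20.8 and 33.9 CPM. For Jak1, Tnfrsf1a and Il6st the counting intervals of the 2 classes stood apart at 0, 48 and 72 h. For Tyk2 they did so at 0 and 48 h, for Lifr at 48 and 72 h (289.5 and 365.5 CPM at 48 h), and for Socs3 and Stat3 only at 0 h. Il6ra did not differ between the classes beyond these intervals in any library, with 200 and 194 CPM at 0 h. Il1r1 was at 135 and 124 CPM at 0 h, with overlapping intervals, and at 113 and 180 CPM at 72 h, with intervals that stood apart. The Il1r1 promoter was lower in hepatocyte-low nuclei, at 54.4 and 34.5 CPM at 0 h and at 96.4 and 45.2 CPM at 48 h. The median depth was 28563 counts in hepatocyte-like and 3407 in hepatocyte-low nuclei at 0 h, and clusters were made from the same counts, so these values are a description.

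**Figure D4:**
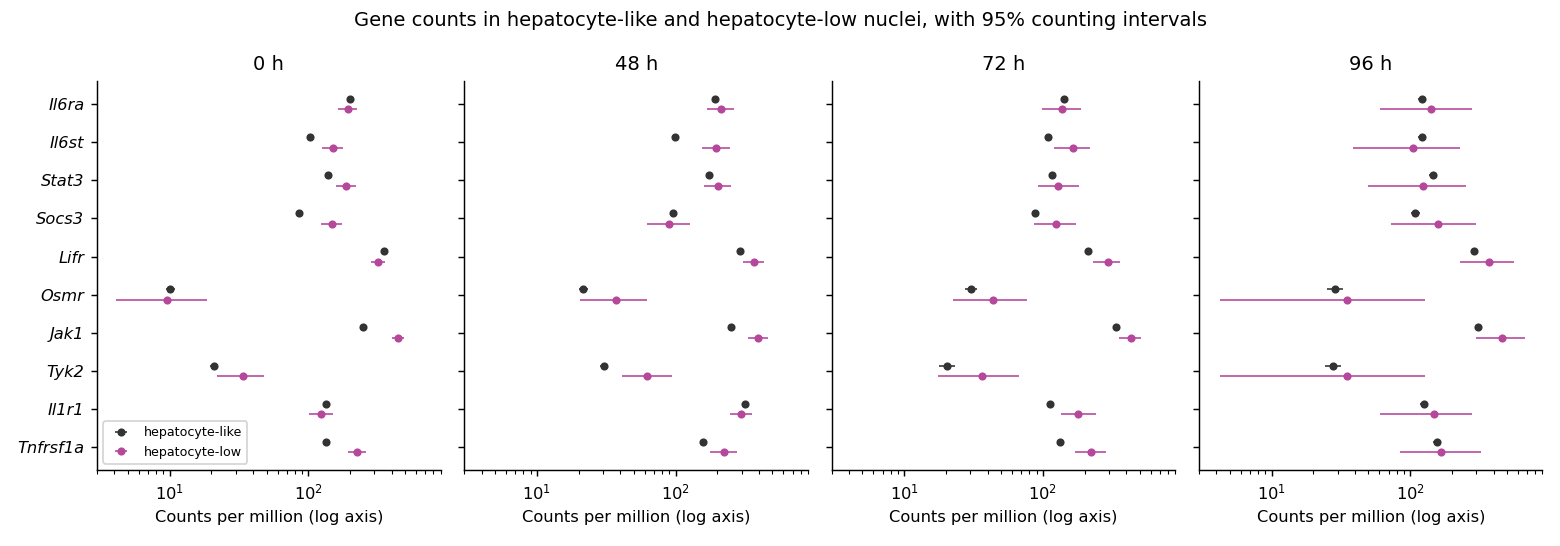
CPM over each gene (horizontal log axes) in hepatocyte-like and hepatocyte-low nuclei of each library, with 95% counting intervals. At 0 h Jak1 was at 249.2 and 444 CPM and Il6ra at 200 and 194 CPM in the 2 classes; at 96 h, with 81 hepatocyte-low nuclei, the intervals are wide.

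Around these 10 genes, the known targets of STAT3 were followed as a list. Of 22 tested, 3 rose past 2-fold at 48 h (Icam1, Saa2 and Steap4) and 1 fell (Pim1), where 5.98% of all genes rose and 2.52% fell. Their median log2 difference was 0.50 beside -0.04 over all genes. That median is the value shared by Fga, Fgb and Fgg, which had the same counts at 48 h and are not independent. Saa2, an acute-phase serum amyloid, went from 2.46 to 23.3 CPM and its covered length from 652 to 6436 bp. It passed the 5 CPM minimum only through the 48 h library, in which it was high, so its call lends the list no support. Pim1, a survival kinase, went from 127 to 62.8 CPM. At 72 h, 1 rose (Saa2) and 6 fell (Bcl3, Pim1, Saa1, Fga, Fgb and Fgg), where 9.95% of all genes rose and 7.62% fell. Of the 6, the 3 fibrinogen genes lie in 1 shared domain, at 673 CPM for each at 0 h and 952 at 48 h, and are not independent of each other. At 96 h, 2 rose (Fos and Hp) and 1 fell (Fga), where 5.36% of all genes rose and 12.0% fell. The medians at 72 and 96 h were -0.18 and 0.09.

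The remaining lists held few calls, to be read against the same shares of all genes and against covered length. Per kb of covered peak, 0 of the 6 calls over all these lists at 48 h, STAT3 targets included, were still past 2-fold. At 72 h 1 of 14 was (Saa1, lower). The sign turned per kb for 3 of the 6 at 48 h and for 5 of the 14 at 72 h. At 96 h 5 of 14 stayed past 2-fold (Il27ra, Socs6, Fos, Hp and Traf6, all higher), and the other 9 turned sign. The median of all genes went from 7.05 CPM per kb at 0 h to 15.9 at 96 h. Values per kb at 96 h are therefore not comparable with 0 h and are no check on these calls. Of the 8 gp130 ligands, 4 passed the filter and 1 of them (Il11) rose at 48 and 72 h, from 5.43 to 16.4 and 12.3 CPM, as its covered length went from 1349 to 5637 and 3044 bp, while Ctf1 was lowest at 48 h with a log2 difference of -0.22. Il6 and Osm themselves did not pass it, with Il6 at 2.53 CPM and Osm at 0 CPM at 0 h. Of 5 other receptors of the family, 0 were past 2-fold at 48 h, between Il11ra1 at -0.42 and Il27ra at 0.80. Il27ra rose at 72 and 96 h. Of 8 other JAKs and STATs, 0 were past 2-fold at 48 h, from Stat5b at -0.84 to Jak3 at 0.65. Stat5b fell at 72 and 96 h and Stat6 at 96 h. Of 13 inhibitors and phosphatases, 0 were past 2-fold at 48 h, from Socs7 at -0.59 to Ptpn1 at 0.97. Socs6 rose and Socs4 fell at 72 and 96 h, and Pias1 fell at 96 h.

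In the interleukin-1 pathway 9 of 11 genes were tested and 0 were past 2-fold at 48 or 72 h, from Myd88, the adaptor of the receptor, at -0.87 to Il1r2, the decoy receptor, at 0.54 at 48 h. Traf6 rose at 96 h. In the TNF and NF-kB pathway 16 of 17 were tested. At 48 h 1 rose, Nfkbie, which encodes an inhibitor of NF-kB, from 13.3 to 151 CPM as its covered length went from 1647 to 14920 bp, with a promoter log2 difference of 0.02. The lowest at 48 h was Rela, a subunit of NF-kB, at -0.83. At 72 h Nfkb1 rose and Chuk fell, and at 96 h Tradd, Rela and Chuk fell.

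**Figure D5:**
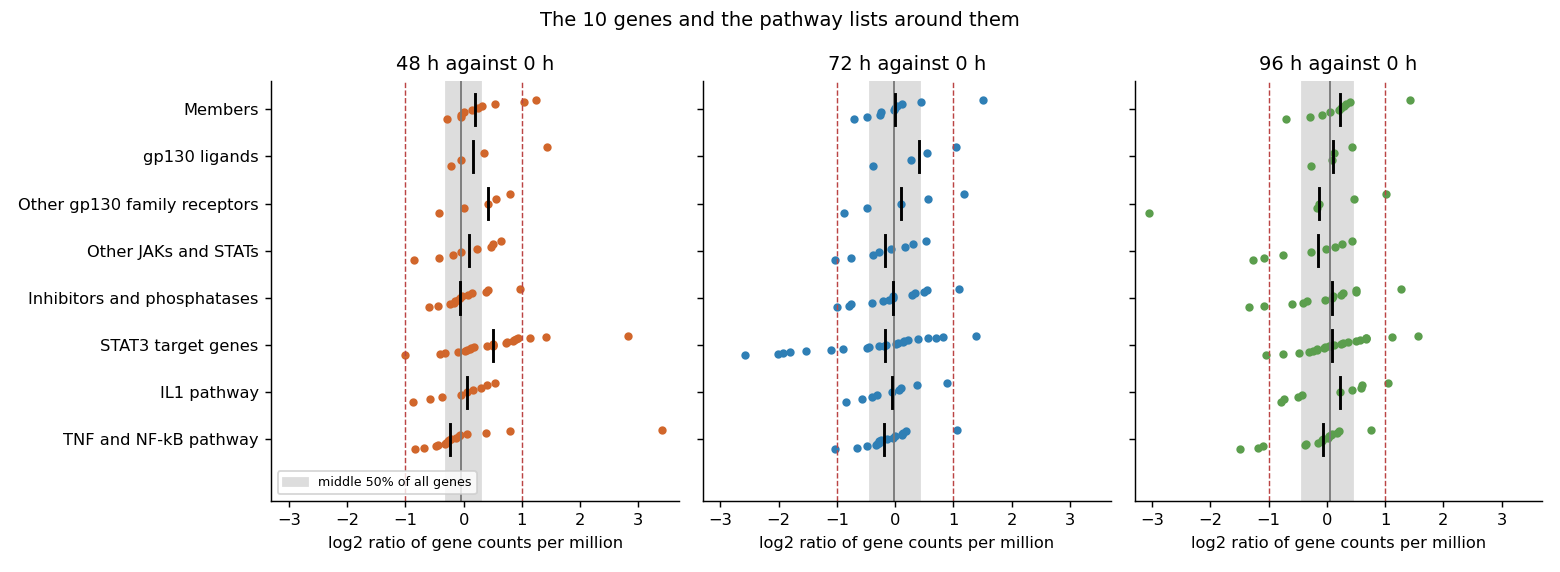
The log2 difference from 0 h in gene CPM (horizontal axes) for the 10 genes and for each pathway list (rows), 1 point per gene past the filter; black bars are list medians, the grey band the middle 50% of all genes, the grey line their median and dashed lines 2-fold. The STAT3 target genes have a median of 0.50 at 48 h, the value shared by Fga, Fgb and Fgg, and of -0.18 at 72 h.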

How the data were processed

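The deposited matrices hold whole-number counts of transposase cut sites per peak and barcode; the authors made them with Cell Ranger ATAC (version 1.1.0 per the file headers; build mm10 per the submitters' processing notes), from 10x Chromium Single Cell ATAC v1 chemistry, with peaks called separately in each library. Between 87.4% and 88.6% of values were even, as both ends of a fragment in a peak count.

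Counts were summed over barcodes with at least 1000 counts and any peak that overlapped the gene window (gene body plus 2 kb upstream) or the promoter (1 kb either side of the gene start), scaled to a total of 1000000 per library (CPM). The log2 difference used a pseudocount of 1 CPM, and a call means past 2-fold. Its interval is the exact conditional binomial interval, and that of a level the exact Poisson interval, both 95%, on counts divided by 2 and without the pseudocount. They cover counting error only. Genes with a mean under 5 CPM over the 4 libraries were left out. Touching or overlapping peaks were merged into 200890 regions. Nuclei were clustered by TF-IDF, singular value decomposition (30 components) and the Leiden method (resolution 0.5); clusters with a hepatocyte marker level above -1 (log2, relative to the mean of clusters) were hepatocyte-like. The limit was set after clusters had been seen. No doublet caller was run; leaving out the deepest 5% of nuclei was 1 alternative. Python 3.11.15, numpy 2.4.6, scipy 1.17.1, scikit-learn 1.9.0 and leidenalg 0.10.2 were used, and the ratio and its interval were tested on simulated data. Promoter sequences came from RefSeq (GRCm38.p6; all 10 genes matched). The genes, pathway lists and marker lists were chosen with earlier results of these data known. From each pathway list the gene highest and the one lowest at 48 h are named, and calls are named besides, except 1 that is not reported here; for each of the 10 genes the 2 nearest patterns were listed. Of the alternative settings, 13 were listed at the outset and 4 were chosen after the data had been seen (2 that leave out shared barcodes, merged regions, and every annotated transcript start). The list calls per kb and the marker sums without 1 gene were also added after the data had been seen.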

Additional observations from a re-analysis of the deposited data

How the results depend on the processing

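Osmr was higher than at 0 h at every later time in 16 of 16 alternative settings, past 2-fold in 11 at 48 h, 15 at 72 h and 16 at 96 h; its lowest values were 0.49, 0.95 and 1.03. Il1r1 at 48 h turned to -0.14 per kb of covered peak. The number of genes that rose at 48 h, 2 as reported, was 0 over peaks with a counterpart of nearly equal length (9 of the 10 genes tested), 0 with binarised counts, 0 per kb, 1 with a pseudocount of 5 CPM and 1 without barcodes found in more than 1 library. Per kb, 1 gene (Tyk2) fell at 48 h, 0 rose at 72 h and 9 rose at 96 h, when 69.1% of all genes did. For promoters, the count at 48 h, 1 as reported, was 0 when peaks counted by their share inside the window, binarised, per kb, with the pseudocount of 5 CPM and without shared barcodes, and 4 (Osmr, Stat3 and Il1r1 higher, Lifr lower) over every annotated transcript start. At 72 h, 2 as reported, it was 1 by share inside the window, over peaks of nearly equal length, per kb and over merged regions, and 3 with binarised counts or over every annotated transcript start. At 96 h, 3 as reported, it was 5 by share inside the window, 1 over peaks of nearly equal length (1 gene tested), 6 per kb, 1 over merged regions, 2 with binarised counts, and 4 with the median of all genes set to 0 or scaled to regions with a peak in every library. The Jak1 promoter at 96 h turned from -1.56 to 1.87 by share inside the window, 2.18 per kb and 0.73 over merged regions, and that of Il1r1 from -1.41 to 0.43 by share inside the window and 0.70 per kb. Apart from the 69.1% at 96 h per kb, the share of all genes past 2-fold under each alternative setting is not given here. The counts of genes in this section therefore show only how far a call depends on the setting. They cannot be set against a background. No paired analysis was possible because each time point was 1 library, and for the same reason no replicate could be left out. Depth limits the 96 h library most, and its peaks are short enough that values per kb are not comparable with 0 h.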

Other observations

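Some genes elsewhere had nearly the same course as the 10, measured as the Euclidean distance over the 3 log2 differences from 0 h (4 libraries, 22524 genes). For Osmr they were Bend6 (distance 0.058; 4.36, 10.2, 14.2 and 13.9 CPM at 0, 48, 72 and 96 h) and Pfkp (0.068; 4.58, 10.5, 15.6 and 13.7 CPM), both lower than Osmr at 0 h. For Il1r1 they were Treh (0.0944), at 36.7, 87.9, 29.1 and 35.3 CPM, and the small nucleolar RNA gene Gm25592 (0.154). For Socs3 they were the pseudogene Rpsa-ps12 (0.0144) and Ppp1r21 (0.0181). For Jak1 they were Phactr1 (0.0167) and Gm13523 (0.0379), for Il6ra Amt (0.0194) and N4bp3 (0.0387), for Il6st Tubgcp2 (0.0226) and Taf5l (0.0239), for Stat3 Dnajc19 (0.0634) and Gm49342 (0.0639), for Lifr Tnfaip8l2 (0.0401) and Pop4 (0.0426), for Tyk2 1700125G22Rik (0.0517) and Gm10812 (0.0744), and for Tnfrsf1a Dlgap5 (0.0203) and Klhl2 (0.0228).

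With each nucleus thinned to 1000 counts, a count in the Osmr promoter peak was seen in 0.578% of 3977 nuclei of undamaged liver (95% exact binomial interval 0.367% to 0.867%). The shares in the later libraries were 1.77%, 2.28% and 1.71%. Unthinned, the shares were 11.04%, 11.4%, 6.23% and 5.06%, in the order of depth for the last 3. For Jak1 the thinned shares were 11.2%, 10.1%, 13.5% and 3.32%, where the last library has the short promoter peak.

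The B-cell gene Cd79a was listed at 0 CPM at 0, 72 and 96 h and at 44.5 CPM at 48 h. It passed the 5 CPM minimum only through the 48 h library. The lymphocyte markers beside it stayed low: at 48 h Cd3e was at 1.42 and Cd2 at 0.82 CPM, and Nkg7 was at 0 in every library. Over the whole 48 h library the 4 lymphocyte markers summed to 46.7 CPM, nearly all of it Cd79a. In hepatocyte-like nuclei the 4 lymphocyte markers summed to 46.1 CPM at 48 h and in hepatocyte-low nuclei to 98.3 CPM.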
